A study of Mus musculus with 16 samples.

Results

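Aqp1, Aqp2, Slc26a4 and Foxi1 are 4 mouse genes that are widely used to mark water-transporting and intercalated cells of the kidney. They were taken by gene symbol and chosen by their log2 ratios among the kidneys in an earlier reading of these data, so their own differences are described here and carry no test. They are 4 of 9669 genes named on the array, each with 1 of its 20205 probes, and each probe had a value on 16 of 16 arrays. Transcript levels in right kidneys of wild-type male mice were compared to measure normal variation between individuals. Mice W1 to W4 were compared with their littermate W5 on two-colour arrays, 4 for each mouse. All 5 mice shared a mixed background of C57BL/6 and 129Sv, and were killed by cervical dislocation in the morning at an age of 88 ± 2 days. The labels give no treatment, transgene or mutation for any group, and the 4 arrays of a mouse were repeat hybridisations of its RNA against that of W5.

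Aquaporins are membrane channels through which water crosses an epithelium along an osmotic gradient. Aqp1 is the constitutive channel of the proximal tubule and the thin descending limb of the loop of Henle, and is also made by endothelium of the vasa recta and by red blood cells. Aqp2 is the channel of principal cells in the connecting tubule and collecting duct, where vasopressin acts through cAMP to move it to the apical membrane and to raise its transcription. Intercalated cells lie between the principal cells and move acid and base. Slc26a4 encodes pendrin, the apical chloride and bicarbonate exchanger of the intercalated cells that secrete bicarbonate. Foxi1 is the forkhead transcription factor that intercalated cells need in order to form, and pendrin is among the genes it is known to activate.

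In assembly GRCm38.p6, Aqp1 lies at chr6:55336299-55348555, Aqp2 at chr15:99579056-99584545, Slc26a4 at chr12:31519814-31560055 and Foxi1 at chr11:34204341-34208089. The 250 bases before the start of 3 of these genes are printed 5′ to 3′ on the gene's own strand, as RefSeq gives them for that assembly. Slc26a4 and Foxi1 are shown because their windows share a run of 15 bases, which stands in capitals in both, and Aqp2 is shown for its cAMP response element half-site, which stands in capitals as CGTCA, the reverse complement of TGACG. The Slc26a4 window is chr12:31559985-31560234 on the minus strand, the Foxi1 window chr11:34208090-34208339 on the minus strand and the Aqp2 window chr15:99578806-99579055 on the plus strand. RefSeq's start for the Slc26a4 window lies inside the gene's span above, so that window overlaps the span.
Slc26a4: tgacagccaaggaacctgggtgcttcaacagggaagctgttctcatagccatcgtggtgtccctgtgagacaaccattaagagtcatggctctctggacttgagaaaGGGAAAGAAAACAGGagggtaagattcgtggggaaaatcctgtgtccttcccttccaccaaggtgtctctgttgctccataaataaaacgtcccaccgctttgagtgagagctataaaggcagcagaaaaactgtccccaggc
Foxi1: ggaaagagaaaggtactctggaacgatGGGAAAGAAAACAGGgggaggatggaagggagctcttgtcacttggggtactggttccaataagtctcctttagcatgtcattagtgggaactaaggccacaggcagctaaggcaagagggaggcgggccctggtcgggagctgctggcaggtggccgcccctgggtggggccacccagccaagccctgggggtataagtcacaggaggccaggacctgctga
Aqp2: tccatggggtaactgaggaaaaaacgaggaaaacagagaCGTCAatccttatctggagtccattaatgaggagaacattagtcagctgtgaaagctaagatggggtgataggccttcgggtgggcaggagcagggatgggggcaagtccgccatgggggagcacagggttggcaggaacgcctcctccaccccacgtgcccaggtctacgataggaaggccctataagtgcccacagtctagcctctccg

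The shared run, GGGAAAGAAAACAGG, begins 143 bases before the start of Slc26a4 and 223 bases before the start of Foxi1. It was picked after the sequences were read, as the longest run shared by any pair of the 4 windows on either strand. The other pairs shared runs of 8 or 9 bases. On either strand it occurs in 2 of 32851 promoter windows of this length (0.00609%), which are these. Since the run was taken from these windows, that share does not tell how often windows share a run this long. The half-site TGACG, searched on both strands, occurred once in the Aqp2 window, in none of the other 3 and in 17.8% of all windows. The forkhead core TGTTT occurred once each in the Aqp2, Slc26a4 and Foxi1 windows and in 46.4% of all windows. In Slc26a4 and Foxi1 that match is the AAACA within the shared run, its reverse complement. The longer forkhead motif TGTTTAC was found in none of the 4 windows and in 3.17% of all windows. The TATA core TATAA occurred once each in the Aqp2, Slc26a4 and Foxi1 windows, was not found in that of Aqp1 and occurs in 22.8% of all windows. These matches are descriptions of letters and do not show that a factor binds.

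The values are log2 ratios of the mouse against W5, so they compare a gene between kidneys and give no level of one gene against another. Odd-numbered arrays carried the mouse in channel 1; even-numbered ones carried W5 there and had their sign turned. Which channel was the numerator is not given in the sources used here, so a value above 0 is said to lie on the positive side of W5 and one below 0 on the negative side, without saying which kidney had more transcript. A coefficient is the fitted log2 ratio of a mouse over its 4 arrays, given with its standard error (SE), after a dye term was taken out for each probe. The range spans the kidneys from end to end, counting W5 as 0. Since whole kidneys were used, fewer cells of a type and less RNA per cell cannot be told apart.

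Between 80.2% and 91.1% of probes had a value on an array, and the number of arrays limits the precision. The SD of the residuals lay between 0.153 and 0.231 over the arrays and was largest on arrays W4.4 and W4.3, where W4.4 means array 4 of mouse W4. Of 15715 probes tested with limma, 629 were called at an adjusted p under 0.05 in the test for any difference among the 5 kidneys, which is 4.00%, and 2806 passed 0.05 before adjustment. Tested probes had a median range of 0.244. A second test, among W1 to W4 alone, called 110 probes or 0.700%. All 4 of Aqp1, Aqp2, Slc26a4 and Foxi1 were among the probes called in the first test, which is part of why they were chosen, and none was called in the second.

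For Aqp1, W2 was the only mouse whose coefficient lay on the positive side of W5. In W1 the 4 arrays read -0.12, -0.39, -0.08 and -0.57, and in W2 they read 0.21, 0.13, 0.43 and -0.11. In W3 they read -0.03, -0.21, -0.06 and -0.57, and in W4 -0.18, -0.23, -0.15 and -0.67. All arrays of W1, W3 and W4 thus lay on the negative side of W5, while 3 of the 4 arrays of W2 lay on the positive side. Array W2.4 fell among the arrays of W1 and W3, so W2 overlapped with them, but it lay above all arrays of W4. Among all probes with values on the 4 arrays of a mouse, 8.28% lay wholly on the negative side in W1, 9.42% in W3 and 8.20% in W4.

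In the order W1 to W4, the coefficients of Aqp1 were -0.29, 0.17, -0.22 and -0.30, each ± 0.08 (SE, n = 4 arrays). The range was 0.47, or 1.39-fold, and 91.5% of tested probes had a smaller one. Ordered from the positive to the negative end, the kidneys ran W2, W5, W3, W1 and W4. W2 lay 0.17 ± 0.08 from W5 and W3 lay 0.22 ± 0.08 from it on the other side. W1, W3 and W4 did not differ from each other beyond their errors, with differences of at most 0.09 ± 0.12. Without W2, the range of Aqp1 was 0.30.

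Aqp2 had the widest range of the 4 genes. Its 4 arrays read -0.37, -0.31, -0.67 and -0.08 in W1, and 0.00, 0.02, -0.38 and 0.58 in W2. They read -0.21, 0.08, -0.30 and -0.08 in W3, and -0.71, -0.13, -0.70 and -0.60 in W4. W4 lay farthest to the negative side, with 3 of its arrays at or below -0.60, while the arrays of W2 spread over both sides of W5. Arrays of all 4 mice overlapped: array W4.2 fell among those of W1, W2 and W3.

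Fitted together, the arrays gave Aqp2 coefficients of -0.36, 0.05, -0.13 and -0.54 in W1 to W4, each ± 0.10. W4 against W5 is a difference of 1.45-fold in size. The range of 0.59, or 1.51-fold, exceeded that of 96.4% of tested probes. The order of the kidneys was the same as for Aqp1: W2, W5, W3, W1 and W4. Neighbours in this order lay within 2 SE of each other, and the outermost pair, W2 and W4, lay 0.59 ± 0.14 apart. The sign in W2 rested on array W2.4, without which that coefficient was -0.07 ± 0.10. With all 4 arrays its error, too, spans W5.

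Slc26a4, pendrin, lay on the positive side of W5 in the coefficients of all 4 mice. Its arrays read 0.31, -0.01, 0.38 and -0.08 in W1, and 0.60, 0.26, 0.59 and 0.06 in W2. They read 0.36, 0.21, 0.29 and 0.24 in W3, and 0.34, -0.12, -0.09 and 0.15 in W4. All arrays of W2 and W3 lay on the positive side, as did 9.04% and 7.73% of probes in these mice, while W1 and W4 had 2 arrays on each side, where 8.59% and 7.43% of probes lay wholly on the positive one. With the dye term removed, the arrays of W1 to W4 had SDs of 0.08, 0.13, 0.10 and 0.22 (n = 4 each).

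For Slc26a4 the coefficients of W1 to W4 were 0.15, 0.38, 0.28 and 0.07, each ± 0.08. The kidneys ran W2, W3, W1, W4 and W5 from the positive to the negative end, so W5 was outermost here, whereas for both water channels it lay between W2 and W3. The range of 0.38, or 1.3-fold, exceeded that of 81.7% of tested probes. Neighbours in this order lay within 2 SE of each other, the largest step being 0.12 ± 0.12 between W3 and W1. Without array W4.4 the coefficient of W4 was 0.00 ± 0.09.

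Foxi1 was the only one of the 4 genes whose 16 arrays all lay on the same side of W5, the negative one. The arrays read -0.07, -0.04, -0.08 and -0.03 in W1, and -0.25, -0.17, -0.47 and -0.18 in W2. They read -0.25, -0.38, -0.02 and -0.52 in W3, and -0.20, -0.22, -0.23 and -0.44 in W4. The arrays of W1 lay within 0.08 of W5, and all those of W2 and W4 lay farther out than any of W1. Wholly negative arrays were found for 8.28%, 10.6%, 9.42% and 8.20% of probes in W1, W2, W3 and W4. These shares are for single mice, and the share of probes with all 16 arrays on the same side was not counted. Every array holds W5, so the 16 readings have that extract in common.

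As coefficients, Foxi1 had -0.05, -0.27, -0.29 and -0.27 in W1 to W4, each ± 0.08. Ordered from the positive end, the kidneys ran W5, W1, W2, W4 and W3. W2, W4 and W3 lay within 0.03 ± 0.11 of each other, and W1 lay 0.05 ± 0.08 from W5. The gap between W1 and W2 was 0.21 ± 0.11, so that neighbours in this order also lay within 2 SE of each other. The range of 0.29, or 1.23-fold, was the smallest of the 4 genes and exceeded that of 64.6% of tested probes. The factor and pendrin, its known target, lay on opposite sides of W5 in all 4 coefficients, though Foxi1 in W1 and Slc26a4 in W4 lay within 1 SE of W5. All 4 are set against the same W5 extract, so they are not 4 separate observations of this. A relation between the genes was not tested.

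**Figure D1:**
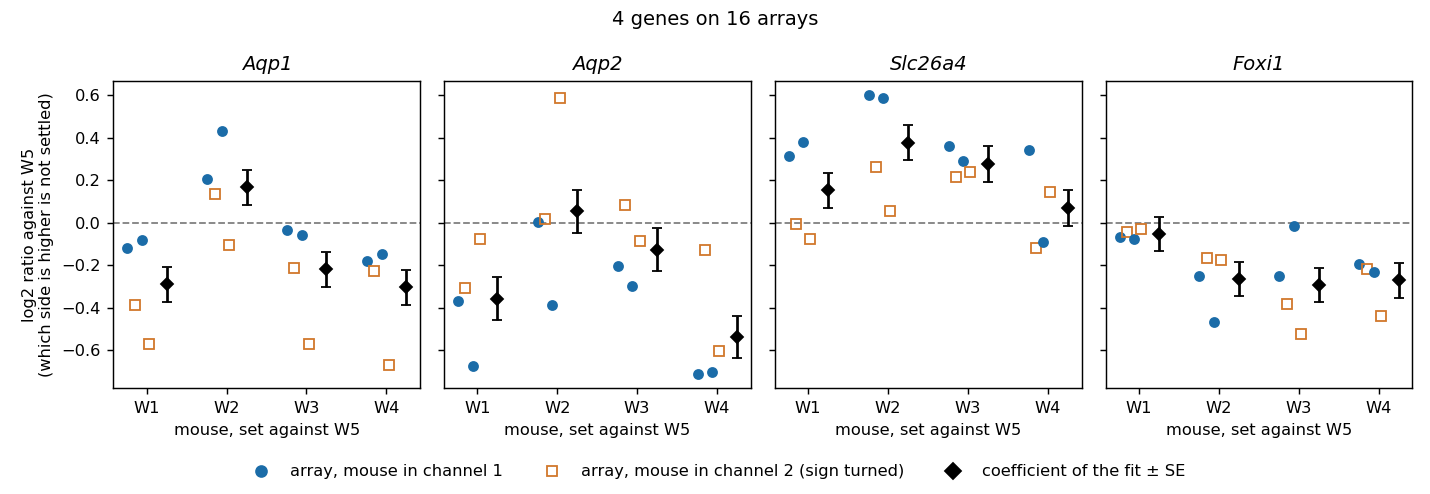
Log2 ratio of each mouse against W5 on the y axis for Aqp1, Aqp2, Slc26a4 and Foxi1, with the 4 arrays of each mouse as points (filled: mouse in channel 1; open: mouse in channel 2, sign turned) and the coefficient of the fit ± SE as a diamond. All 16 Foxi1 points lie below 0, while the Aqp1 and Aqp2 points of W2 stand mostly above those of W4.

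Each mouse was measured in both channel orientations, which gives 2 readings of the same kidney with the dyes exchanged. Over all probes the 2 readings of a mouse agreed weakly. With each orientation centred over the mice and signs not yet turned, so that a negative r means agreement, they correlated at -0.168 in W1. In W2, W3 and W4 r was -0.0899, -0.0785 and -0.159. The SD of the residuals over arrays was 0.148 for Aqp1, 0.207 for Aqp2, 0.152 for Slc26a4 and 0.143 for Foxi1, against a median of 0.195 over tested probes. The fitted dye term was 0.16 ± 0.04 for Aqp1, -0.18 ± 0.05 for Aqp2, 0.13 ± 0.04 for Slc26a4 and 0.03 ± 0.04 for Foxi1. A dye term larger in size was found for 10.6%, 8.3%, 20.1% and 79.8% of tested probes in that order of genes. For Aqp1, Aqp2 and Slc26a4 the dye term was thus of the size of several of the differences between kidneys, and for Foxi1 it was smaller than its SE.

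Differences among W1 to W4 within an orientation do not contain the dye term. With the mouse in channel 1, the distance between the outermost of W1 to W4 was 0.48 for Aqp1, 0.52 for Aqp2, 0.47 for Slc26a4 and 0.29 for Foxi1. With the mouse in channel 2 it was 0.49, 0.67, 0.27 and 0.42 in that order of genes. Aqp1 had W2 at the positive end in both orientations, and Aqp2 had the order W2, W3, W1, W4 in both. Slc26a4 had W2 at the positive end and W4 at the negative end with the mouse in channel 1, but W3 and W1 there with the mouse in channel 2. Foxi1 kept W1 nearest to W5 in both orientations, and W2 and W3 exchanged places at its negative end. The sign against W5 differed between orientations in 2 of the 16 combinations of gene and mouse. These were Aqp2 in W2, at -0.19 and 0.30, and Slc26a4 in W1, at 0.35 and -0.04, with the mouse in channel 1 and in channel 2. Others kept their sign but lay close to W5 with the mouse in channel 2. In the same order of channels, Aqp1 in W2 lay at 0.32 and 0.01, Slc26a4 in W4 at 0.13 and 0.01 and Aqp2 in W3 at -0.25 and -0.001. These means hold the dye term.

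**Figure D2:**
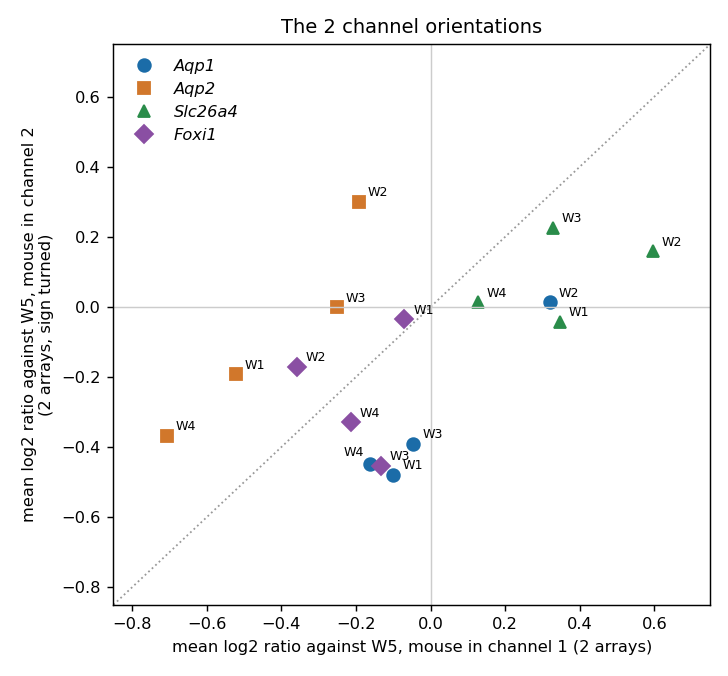
Mean log2 ratio against W5 over the 2 arrays with the mouse in channel 2 (y axis, sign turned) against the mean over the 2 arrays with the mouse in channel 1 (x axis), with 1 point per gene and mouse and a dotted line where both agree. Aqp2 points lie above the line and those of Aqp1 and Slc26a4 below it, which is the dye term, and only Aqp2 in W2 and Slc26a4 in W1 fall in a quadrant of unequal signs.

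Among W1 to W4, the order W2, W3, W1, W4 was shared by Aqp1, Aqp2 and Slc26a4, a likeness noticed after their values were seen. It was found for 4.73% of tested probes, and the opposite order for 5.64%. The 20 other tested genes of the principal and intercalated cell lists were set beside it. Of these, 3 genes (15%) had the same order: Hsd11b2, the enzyme that shields the mineralocorticoid receptor from glucocorticoids, and the ammonia transporters Rhcg and Rhbg. Hsd11b2 had coefficients of -0.05, 0.11, 0.04 and -0.32 in W1 to W4, each ± 0.08, but was not called (adjusted p = 0.124). Rhcg had -0.11, 0.10, -0.04 and -0.29 (adjusted p = 0.182) and Rhbg -0.11, 0.06, 0.05 and -0.21 (adjusted p = 0.442), and neither was called. W4 lay to the negative side of W2 in 14 of the 20 genes (70%), against 48.2% of tested probes, with a median difference of -0.11 against 0.0079. The opposite held for Adgrf5, Atp6v1g3, Gata2, Gata3, Slc4a1 and Slc4a8. Among them, the intercalated cell markers Atp6v1g3 and Slc4a1 had W4 at 0.22 and 0.12 and W2 at 0.04 and -0.03. Scnn1a, the alpha subunit of the epithelial sodium channel, varied little, with a range of 0.02. W4 was set against W2 because of the order of Aqp1, Aqp2 and Slc26a4. All 20 genes were read from the same extracts, so they are not separate observations. The difference was not particular to these lists. The means in W2 and W4 were 0.04 and -0.08 for other proximal tubule genes and 0.06 and 0.01 for proton pump (V-ATPase) subunits. Other water channels went the opposite way, at -0.14 and -0.06.

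The order itself rested on small differences. Without array W1.2, W1.3, W4.3 or W4.4, or without both W4.3 and W4.4, 2 of the 4 genes had it. The same count of 2 was found with array weights, with arrays scaled to a common spread and over the arrays with the mouse in channel 1, and over the arrays with the mouse in channel 2 only Aqp2 had it. Over 16 arrays with the dye term removed, Pearson's r was 0.576 between Aqp1 and Aqp2, 0.448 between Aqp1 and Slc26a4 and 0.312 between Aqp2 and Slc26a4. Foxi1 had r of -0.088 with Aqp1, 0.072 with Aqp2 and -0.46 with Slc26a4. These points share W5, and arrays of a mouse share its RNA, so the correlations describe these arrays.

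**Figure D3:**
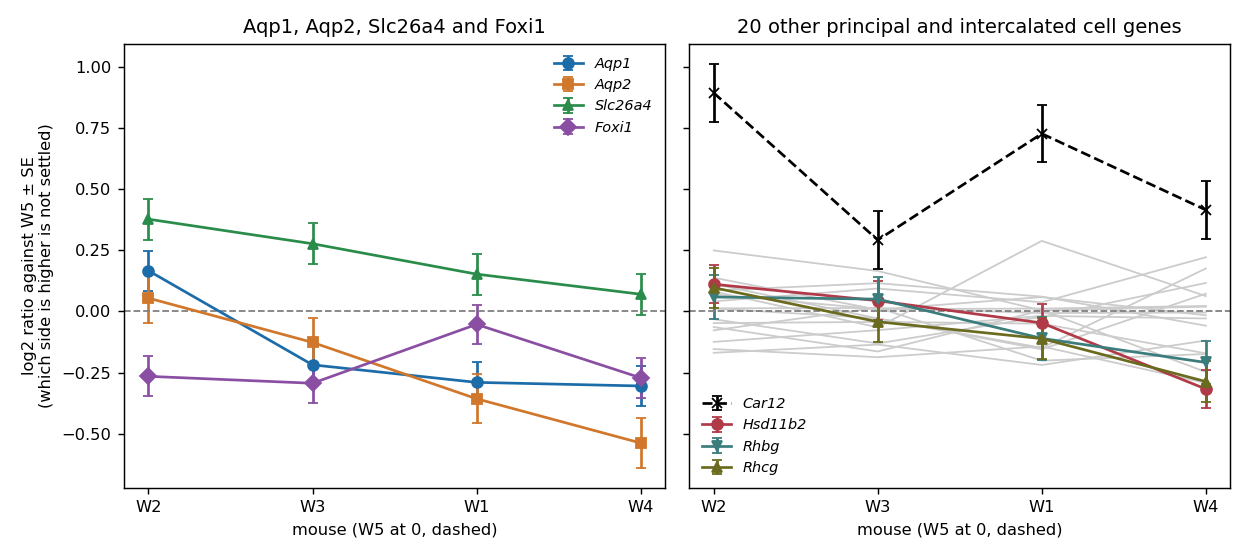
Coefficients of the 4 mice as log2 ratio against W5 ± SE (y axis), with the mice in the order W2, W3, W1, W4 (x axis) and W5 as the dashed line at 0, for the 4 genes (left) and the 20 other principal and intercalated cell genes (right, grey where not named). Aqp1, Aqp2 and Slc26a4 descend from W2 to W4 and Foxi1 does not, and Car12 lies above the other genes in every mouse.

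The named genes whose profile over the arrays was most like each of the 4 were taken by Pearson's r among 8004 other tested genes. For Aqp1 these were Slc26a1 (r = 0.921, 15 arrays), Ddt (0.912, 16 arrays) and Prkag2 (0.905, 16 arrays). Slc26a1 encodes a sulfate and oxalate transporter of the proximal tubule, and Ddt D-dopachrome tautomerase. Slc26a1 had coefficients of 0.14, 0.65, 0.08 and 0.12 in W1 to W4 and was called (adjusted p = 0.0132), though not without array W2.2 (adjusted p = 0.0788) or W2.3 (adjusted p = 0.105). Ddt had -0.19, 0.43, 0.01 and -0.08 and was called (adjusted p = 0.0276). Without array W1.4, W2.2, W2.3 or W2.4, Ddt was not called, with adjusted p between 0.0555 and 0.119. Neither was called in a fit without the dye term (adjusted p = 0.366 for Slc26a1 and 0.249 for Ddt). Like Aqp1, both had W2 at the positive end of the 5 kidneys.

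Aqp2 was nearest to Tmbim6 (r = 0.918), Gpr153 (0.904) and Akr7a5 (0.900), each over 16 arrays, with ranges of 0.22, 0.18 and 0.19. Another probe of Tmbim6 disagreed, with W4 on the positive side at 0.20. Slc26a4 was nearest to Nme3 (0.900, 15 arrays), Dennd5a (0.897, 15 arrays) and Emc10 (0.867, 16 arrays). Foxi1 was nearest to Rbmx (0.885, 16 arrays), Atf7ip (0.883, 13 arrays) and Cnmd (0.823, 14 arrays). Of the 12 genes so named, only Slc26a1 and Ddt were called, and the ranges of the other 10 were between 0.17 and 0.55. A high r over arrays thus went with small differences between kidneys for most of them.

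Other genes of the same pathways were taken from lists chosen with earlier results known, and are counted here without Aqp1, Aqp2, Slc26a4 and Foxi1. Of 8005 named genes tested, 336 were called, with a median range of 0.235 over all of them. Beside the counts at an unadjusted p under 0.05 below stand 2806 of the 15715 tested probes. The lists were not tested as sets. Of the other water channels, 1 of 5 tested was called: Aqp7, a channel for glycerol and water, at -0.09, -0.13, -0.22 and -0.34 in W1 to W4, each ± 0.07 (adjusted p = 0.0119). Aqp5 had a wider range of 0.45 without a call (adjusted p = 0.475). Without arrays W4.3 and W4.4, Aqp7 was not called (adjusted p = 0.0718). The 5 had a median range of 0.288, and 1 had an unadjusted p under 0.05.

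The 8 other principal cell genes tested had a median range of 0.26. Of these, 4 had an unadjusted p under 0.05 and 1 was called. It was Npnt, nephronectin, an extracellular matrix ligand of integrins that podocytes also make, at -0.14, -0.15, -0.19 and -0.29 in W1 to W4 (adjusted p = 0.0153). Npnt was not called without the dye term (adjusted p = 0.148) or without arrays W4.3 and W4.4 (adjusted p = 0.063). The 13 other intercalated cell genes tested had a median range of 0.247. Of these, 3 had an unadjusted p under 0.05 and 1 was called. It was Car12, a membrane-bound carbonic anhydrase, which lay at 0.73, 0.89, 0.29 and 0.41 in W1 to W4, each ± 0.12 (adjusted p = 4.84e-05). Car12 had the widest range of both lists, 0.89, and like Slc26a4 lay on the positive side of W5 in every mouse, with W2 outermost.

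None of the 15 tested V-ATPase subunits, the proton pump by which intercalated cells move acid, was called by limma, with 4 at an unadjusted p under 0.05. They had a median range of 0.202, and Atp6ap1 had the widest at 0.44 (adjusted p = 0.327). None of 16 tested genes of vasopressin signalling and Aqp2 trafficking was called either, again with 4 at an unadjusted p under 0.05. They had a median range of 0.195 and the widest was that of Hspa8, at 0.41 (adjusted p = 0.239). Of the 5 tested genes of the response to tonicity, 2 had an unadjusted p under 0.05 and 1 was called. It was Clu, clusterin, at -0.20, -0.26, -0.06 and -0.45 (adjusted p = 0.0382). Clu was not called when any of 13 of the arrays was left out, with adjusted p between 0.0536 and 0.103, nor without the dye term (adjusted p = 0.0904) or with the replicate block, which takes the array number in its place (adjusted p = 0.0583). Nfat5, the transcription factor of that response, had a range of 0.39 (adjusted p = 0.443).

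Segment genes give the surroundings of the 4 genes along the nephron. The 11 other proximal tubule genes tested had a median range of 0.359, and 7 had an unadjusted p under 0.05. Of these, 3 were called, and they did not share a side. Slc13a3, a dicarboxylate transporter, lay at 0.07, -0.27, 0.06 and -0.43 in W1 to W4 (adjusted p = 0.00434). Slc5a1, a sodium and glucose cotransporter, lay at -0.26, -0.43, -0.19 and -0.34 (adjusted p = 0.00929). Slc34a3, a phosphate transporter, lay at 0.25, 0.38, -0.04 and 0.28 (adjusted p = 0.013). Without the dye term, Slc5a1 (adjusted p = 0.145) and Slc34a3 (adjusted p = 0.052) were not called, and without arrays W4.3 and W4.4 Slc13a3 was not (adjusted p = 0.0603). None of these 3 had the profile of Aqp1, in which W2 alone lay on the positive side. Slc22a8, an organic anion transporter, had a range of 0.44 without a call (adjusted p = 0.204), but was called without array W4.4 (adjusted p = 0.0399).

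Of the other thin limb genes, 1 of 2 tested was called: Cryab, a small heat shock protein abundant in the inner medulla, at -0.47, -0.17, -0.15 and -0.27 (adjusted p = 0.017, but 0.0743 without array W1.3). Cldn4 had a range of 0.32 (adjusted p = 0.504). None of 3 tested thick limb genes was called, with 1 at an unadjusted p under 0.05, and Umod, uromodulin, had the widest range at 0.43 (adjusted p = 0.059). Umod was called with the replicate block (adjusted p = 0.0281) and when only probes on all 16 arrays were tested (adjusted p = 0.0358). None of 9 tested genes of the distal convoluted and connecting tubule was called, with 2 at an unadjusted p under 0.05, and Wnk4 had the widest range at 0.35 (adjusted p = 0.452). In the gene families of pendrin and Foxi1, 1 of 2 other Slc26 genes was called, Slc26a1, while Slc26a2 had a range of 0.12 (adjusted p = 0.917). None of 8 other forkhead genes was called, with 3 at an unadjusted p under 0.05 and the widest range in Foxp1, at 0.39 (adjusted p = 0.268).

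Markers of other cells in a whole kidney also differed among the same kidneys. These lists, too, were chosen with earlier results of these data known, so their counts of called genes are not an independent finding. Over all named genes tested, 336 of 8005 were called. At an unadjusted p under 0.05 were 5 endothelial, 3 podocyte, 5 adipose, 3 leukocyte and 3 muscle genes, against 2806 of 15715 tested probes. Of 10 tested endothelial genes, 4 were called, and the list's mean was -0.01, 0.28, -0.03 and 0.31 in W1 to W4. Esm1 lay at 0.14, 0.54, 0.04 and 0.74 in W1 to W4 (adjusted p = 1.45e-05), Emcn at 0.03, 0.51, 0.04 and 0.59 (adjusted p = 0.00102) and Egfl7 at 0.06, 0.45, -0.09 and 0.26 (adjusted p = 0.00254). Ehd3 lay at 0.08, 0.36, -0.09 and 0.29 (adjusted p = 0.0276) and was not called without W4.1 or any single array of W2, with adjusted p between 0.0514 and 0.0719; its other probe was not called (adjusted p = 0.624). Nor was Ehd3 called without the dye term (adjusted p = 0.0528) or with the replicate block (adjusted p = 0.0509). The endothelial means separated W2 and W4 from W1 and W3, whereas Aqp1 and Aqp2 had W2 and W4 at opposite ends. Plvap, a protein of fenestrated endothelium, had a range of 0.75 without a call (adjusted p = 0.109), and a second probe of Flt1 was called with a range of 0.58 (adjusted p = 0.00393).

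None of 5 tested red blood cell genes was called, and none had an unadjusted p under 0.05, with list means between -0.05 and 0.04 and the widest range, 0.43, in Rhd (adjusted p = 0.679). Their defining marker Alas2 was measured on 16 of 16 arrays. Of 4 podocyte genes tested, 2 were called. These were Npnt and Podxl, podocalyxin, at 0.40, 0.68, 0.04 and 0.47 (adjusted p = 3.86e-05). Ptpro had a range of 0.39 (adjusted p = 0.242). Of 7 adipose genes, 4 were called, and the list's mean was -0.22, -0.24, -0.35 and -0.47 in W1 to W4. They were Fabp4 at -0.47, -0.67, -0.64 and -0.31 (adjusted p = 3.8e-05), Cidec at -0.37, -0.36, -0.68 and -0.85 (adjusted p = 0.00219), Car3 at -0.08, -0.34, -0.35 and -0.53 (adjusted p = 0.00145) and Aqp7, which is on the list of water channels as well. Cidea had a range of 0.88 (adjusted p = 0.112, but 0.0394 without array W4.3 and 0.0147 without W4.3 and W4.4).

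Of 10 leukocyte genes, 1 was called. It was S100a8, at -0.24, -0.46, 0.19 and -0.16 (adjusted p = 0.0242), which was not called without array W2.1 (adjusted p = 0.0937) or W2.3 (adjusted p = 0.0871). Lyz2 had a range of 0.55 (adjusted p = 0.127, but 0.0305 without array W2.2), and its other probe was called (adjusted p = 0.0117). Of 7 muscle genes, 1 was called, Mylk, with a range of 0.32 (adjusted p = 0.0407), which was not called when any of 14 arrays was left out, with adjusted p between 0.0507 and 0.12, nor without the dye term (adjusted p = 0.365) or with the replicate block (adjusted p = 0.0615). Myh11 had the widest range of that list, at 0.41 (adjusted p = 0.14). None of 4 urothelial genes was called, with 1 at an unadjusted p under 0.05, and Krt5 had a range of 0.59 (adjusted p = 0.452). None of 4 adrenal genes was called, with 1 at an unadjusted p under 0.05, and Nr5a1 had a range of 0.44 (adjusted p = 0.624). The part of these other cells in the values of Aqp1, Aqp2, Slc26a4 and Foxi1 was not tested.

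**Figure D4:**
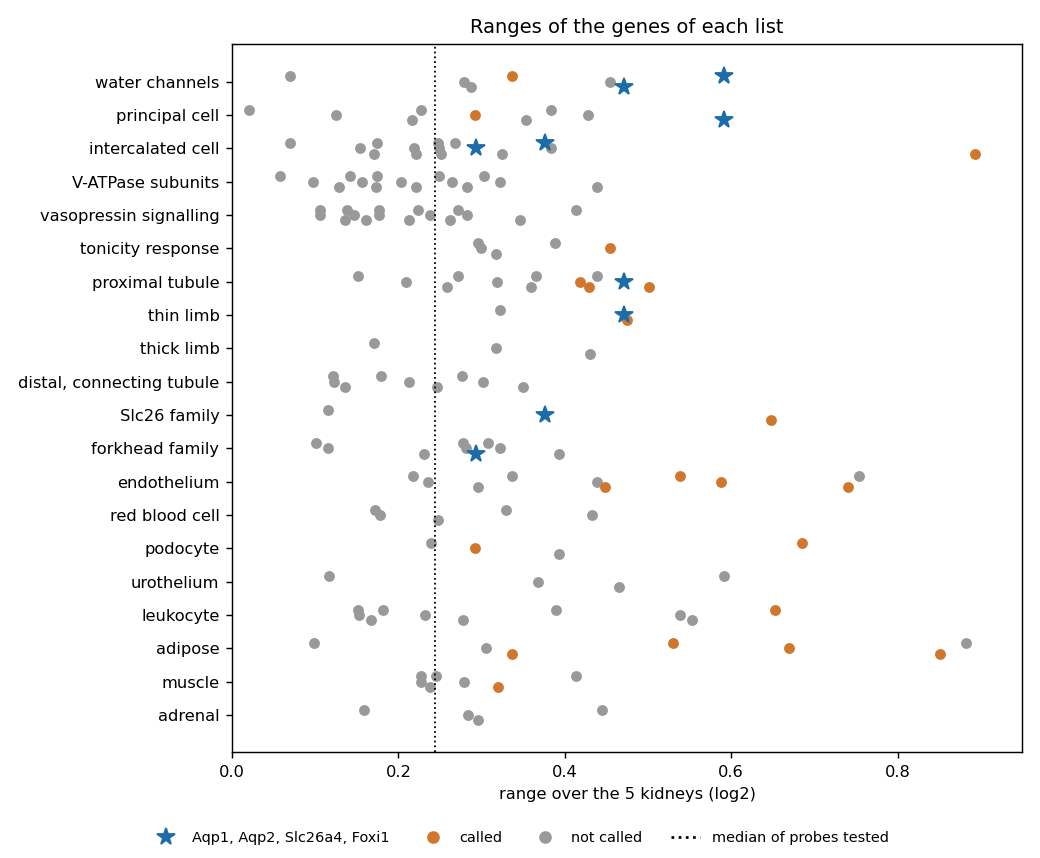
Range over the 5 kidneys on the log2 scale (x axis) for each tested gene of each list (y axis), with the 4 genes as stars, called genes in orange, genes that were not called in grey and the median range of tested probes, 0.244, as a dotted line. Aqp2 at 0.59 lies to the right of the other water channels, while Slc26a4 and Foxi1 lie among the other intercalated cell genes, of which Car12 at 0.89 has the widest range.

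Of the genes that define these cells, Slc4a1, Slc4a9 and Atp6v1g3 for intercalated cells, and Lrp2 and Cubn for proximal tubule, were measured on 16 of 16 arrays and were not called. Slc4a1 had a range of 0.25 (adjusted p = 0.659), Slc4a9 0.15 (adjusted p = 0.799) and Atp6v1g3 0.22 (adjusted p = 0.404). At 0.22, the coefficient of Atp6v1g3 in W4 was the farthest from W5, on the positive side, where that of Foxi1 lay on the negative side. Aqp3, Avpr2, Scnn1b, Scnn1g, Atp6v1b1 and Atp6v0a4 were not analysed here.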

How the data were processed

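RNA of right kidneys was measured on 16 two-colour arrays, 4 for each of W1 to W4 against W5, 2 in each channel orientation. The deposited values are log2 ratios that the authors made, per the labels, from background-subtracted mean intensities read with GenePix Pro 3.0 and scaled to a median ratio of 1. The numerator, each channel's dye and any filter that emptied cells stay unknown, being not given in the sources used here. Samples were grouped by title.

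Signs were turned on arrays with W5 in channel 1. Probes with values on at least 3 arrays of every mouse were fitted with limma 3.58.1 in R 4.3.3 (lmFit, eBayes), with 4 mouse coefficients and a dye term for each probe. Moderated F tests asked for differences among the 5 kidneys and among W1 to W4, with Benjamini-Hochberg adjustment over 15715 probes. Replicate arrays repeat the same extracts, so p-values measure the spread between hybridisations, not between mice. The fit was tested on simulated data.

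A single symbol named 11723 of 20205 probes, several symbols 806, and 7676 stay unnamed here; 11590 matched a gene table of GRCm38.p6, and 0 symbols changed. A gene with several probes was represented by the probe on most arrays. The genes and lists were chosen with earlier results of these data known. Named genes are the 4 and, for each, the 3 of highest Pearson's r on at least 12 shared arrays. From each list come every called gene and the uncalled one of widest range, with defining markers for part of the lists. The defining markers Ptprc, Cd68, Acta2, Star and Cyp11a1 were tested too and were not called. Scnn1a, the genes sharing an order and those with W4 to the positive side of W2 were named after their values were seen. Alternatives changed the dye term, scale, weights, filter, centring, replicate block, orientation, arrays and mice.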

Additional observations from a re-analysis of the deposited data

Results flagged for a closer look

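In 16 groups of 4 arrays (4 genes in 4 mice), an array was marked where its gap to the nearest other array, divided by the range of the group, exceeded Dixon's critical value for 4 samples, which chance gives in about 1 in 20 groups. Array W4.4 was marked for Aqp1, where it read -0.67 and the other 3 arrays of W4 lay between -0.23 and -0.15, with a gap of 0.848 of the range. The same array was marked for Foxi1, where it read -0.44 and the other 3 lay between -0.23 and -0.20, also with 0.848. Without it the coefficient of W4 was -0.23 ± 0.09 for Aqp1, against -0.30 with it, and -0.22 ± 0.09 for Foxi1, against -0.27 with it. These values hold the dye term; with it removed, W4.4 was not marked for either gene, its gap being 0.365 of the range for Aqp1 and 0.695 for Foxi1, and no array of the 16 groups was marked. W4.4 had the largest residual SD of the 16 arrays, 0.231.

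Of the list genes named, 4 differed among W1 to W4 in limma's F test, in which W5 cancels. The proximal tubule transporter Slc13a3 had an adjusted p of 0.0367, with W2 and W4 to the negative side of W1 and W3. The endothelial genes Esm1 (adjusted p = 0.00509), Emcn (adjusted p = 0.0435) and Egfl7 (adjusted p = 0.0435) had W2 and W4 to the positive side of W1 and W3.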

How the results depend on the processing

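Over 30 alternatives, the 16 coefficients of Aqp1, Aqp2, Slc26a4 and Foxi1 gave 464 values, of which 450 moved by less than the SD between arrays and 14 by more, all 14 in the fits of 1 orientation. Part of the 450 could not move, since these genes have values on all 16 arrays in a balanced layout. Leaving out the dye term or another mouse, changing the probe filter or taking the replicate block leaves their coefficients as they were. Such values do not show stability. Signs changed for Aqp2 in W2 with the mouse in channel 1 (-0.19) and without array W2.4 (-0.07), for Slc26a4 in W1 with the mouse in channel 2 (-0.04) and for Slc26a4 in W4 without array W4.4 (-0.0045). The range moved to 0.59 for Slc26a4 with the mouse in channel 1 and to 0.45 for Foxi1 with the mouse in channel 2. Leaving out 1 array or mouse gave ranges of 0.30 to 0.56 for Aqp1, 0.41 to 0.69 for Aqp2, 0.28 to 0.45 for Slc26a4 and 0.27 to 0.38 for Foxi1. Probes called among the 5 kidneys numbered 403 without the dye term, 181 with the mouse in channel 1 and 115 with it in channel 2, and 335 to 671 with 1 array or mouse left out. Among W1 to W4 the count was 62 without the dye term, 243 with array weights, 29 and 4 in the fits of 1 orientation (channel 1 and channel 2), and 49 to 125 with 1 array or mouse left out, 72 without array W3.2. Of transport and nephron genes other than the 4, 9 were called, against 4 without the dye term and 15 with array weights. The count was 3 with the mouse in channel 1 and 0 with it in channel 2. Leaving out 1 array or mouse gave 5 to 10. Some genes stand on several of these lists, and the number tested over all of them was not counted. These counts are therefore not shares, and do not tell whether such genes were called more often than other named genes. The fits of 1 orientation hold 8 arrays; the cause of the other changes was not tested. With the array number as a replicate block in place of the dye term, 591 probes were called among the 5 kidneys. The block called 97 probes among W1 to W4 and 9 of the transport and nephron genes. The ranges of Aqp1, Aqp2, Slc26a4 and Foxi1 stayed at 0.47, 0.59, 0.38 and 0.29, which the balanced layout fixes in advance. The block also ended the calls of Clu, Ehd3 and Mylk and added that of Umod, and changed no other call of a named gene. With the mouse in channel 2 alone, Car12 was not called (adjusted p = 0.0841). Nor were Fabp4 (adjusted p = 0.066), Emcn (0.0934), Car3 (0.0971), Cidec (0.162), S100a8 (0.245) and Egfl7 (0.333), among others, while Esm1 and Podxl stayed called. With the mouse in channel 1 alone, Egfl7 (0.0719), Podxl (0.0756), Car3 (0.168) and Emcn (0.173) were not called, among others. Car12, Cidec and Fabp4 stayed called there. Esm1 was called in all 30 alternatives. Arrays of the same number in different mice correlated at 0.0937 to 0.334 in 24 pairs (median 0.169), and other arrays of the same orientation at -0.0111 to 0.329 (median 0.12), so the numbers were not taken to pair the arrays. Without arrays W4.4 and W4.3, chosen after seeing the data, the ranges were 0.46, 0.48, 0.38 and 0.29 in that order of genes, with 570 and 113 probes called. With 4 arrays a mouse, differences near 0.1 were within the error.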
